A study of Mus musculus with 12 samples.

Results

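Pou5f1, Sox2, Sall4 and Utf1, 4 transcription and chromatin factors of the pluripotency core, were followed from naive mouse embryonic stem cells (ESCs) to epiblast-like cells (EpiLCs) in nascent and in total RNA. The genes were chosen by name, each gene identifier of the count table being matched to its symbol through the GENCODE mouse annotation, and they are 4 of the 51467 genes counted. All 4 were among the 14731 genes that reached at least 3 CPM (read counts relative to the size of the library) in at least 3 libraries. They were grouped as core factors that are kept through the step from naive to formative cells. For Sox2 the data went against that name, because its mRNA fell 11.7-fold.

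Pou5f1 encodes OCT4, a POU domain protein, and Sox2 encodes an HMG box protein. The pair bind composite sites side by side in the enhancers of pluripotency genes, their own included. SALL4 is a zinc finger protein that binds AT-rich DNA and recruits the NuRD deacetylase complex, and UTF1 is a chromatin-associated protein whose gene is a known target of OCT4 and SOX2. OCT4 stays on in naive, formative and primed cells, whereas much of the naive network is shut off when the inhibitors are withdrawn.

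ESCs were grown in medium with fetal bovine serum, LIF and the 2i inhibitors PD0325901 and CHIR99021. EpiLCs were the same cells collected 56 h after LIF and 2i had been removed. The cells carried fluorescent reporters for the miR-290 and miR-302 loci, and all values come from this 1 line. Both cell types were pulsed for 30 min with 500 µM 4-thiouridine (4sU), a uridine analogue. The extracted RNA was then divided between the 2 assays. Captured 4sU-labelled RNA (4sU libraries) measured nascent RNA, and rRNA-depleted RNA (total libraries) measured mRNA. The 4 groups, ESC 4sU, ESC total, EpiLC 4sU and EpiLC total, held 3 libraries each. The study calls the replicates of these assays biological. The labels do not say that the numbered replicates were separate cultures, so p-values measure the spread between these samples. Gene counts summed to 3097693 to 5385644 reads in the 4sU libraries and to 9300845 to 21975684 in the total libraries. Replicate libraries were correlated with Spearman's rho of 0.97 to 0.998 across genes. ESC number 3 stood apart in both assays. Its rho with the other ESC libraries was 0.97 and 0.976 in 4sU and 0.985 in total libraries, against 0.988 and 0.998 between numbers 1 and 2. Where its libraries decided a call of a member or a count of list calls printed here, the value without them is given beside it or in the closing section. Other list calls that rest on them, such as nascent calls of POU and NuRD genes, are not listed.

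The cell states were checked first. The 10 naive markers summed to 3685 to 3908 CPM in ESC total and to 328 to 339 CPM in EpiLC total libraries, and 10 of 10 fell in mRNA (11.2% of all genes did, by the calls defined below). Fgf5, a growth factor of the early epiblast, went from 0.111 ± 0.117 to 43.8 ± 3.93 CPM (SD, n = 3), and 5 of 6 formative or primed markers rose in mRNA, beside 16.3% of all genes. Without ESC number 3 it was 4 of 6, because Dnmt3a then fell short of the fold threshold at 0.92. The 6 neural markers summed to 48.2 to 97.2 CPM in ESC total and 424 to 483 CPM in EpiLC total. Trophectoderm markers summed to 59.2 to 63.7 CPM and to 173 to 210.3 CPM, with Krt18 alone at 187 ± 17.7 CPM in EpiLC total (SD, n = 3). Of the 4 trophectoderm markers that passed the filter Krt18 rose, while Tfap2c (40.3 ± 0.96 to 3.91 ± 0.25 CPM) and Tfap2a (1.85 ± 0.62 to 0.45 ± 0.20 CPM) fell, and without the libraries of ESC number 3 Gata3 was called higher as well. Primitive endoderm (at most 22.2 CPM), mesendoderm (at most 31.3 CPM) and fibroblast markers (at most 21.8 CPM) were low in all total libraries. Of the 3 mesendoderm markers that passed the filter 2 rose and 0 fell in mRNA, and of 4 primitive endoderm markers 2 rose and 1 fell. In 4sU libraries the mesendoderm markers summed to at most 29.8 CPM in ESCs and to at least 44.9 CPM in EpiLCs. The primitive endoderm markers summed to at most 17.2 CPM in ESC 4sU and to at least 31.9 CPM in EpiLC 4sU. The fibroblast genes Dcn, Postn and Fap were at 0 in all ESC libraries, and Fap also in all EpiLC libraries. Dcn, at 4.84 ± 0.44 CPM in EpiLC total, and Col1a2, from 0.158 ± 0.050 to 4.28 ± 0.69 CPM in total libraries, were called higher in EpiLCs, Dcn also in stability, while Pdgfrb was called lower. The part of these shifts in the results below was not tested. In such bulk libraries a smaller number of expressing cells and less RNA per cell cannot be told apart, and the 92 spike-in entries of the table held 0 reads, so all levels are relative to the other genes of a library.

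Sites in the 3′ end of the transcript can bear on stability, so those of the members are shown before the values. The 3′ untranslated regions (UTRs) were 221 bases long in Pou5f1, 1086 in Sox2, 1697 in Sall4 and 122 in Utf1, against a median of 1045 over 12304 genes with a coding transcript. The miR-290 and miR-302 clusters give the abundant microRNAs of pluripotent cells, and let-7 microRNAs accumulate on later differentiation. Their mature sequences (RefSeq) are printed with the seed, bases 2 to 8, in capitals:
mmu-miR-294-3p: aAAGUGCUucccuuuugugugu
mmu-miR-302b-3p: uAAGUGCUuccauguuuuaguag
mmu-let-7a-5p: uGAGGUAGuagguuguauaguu

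A match to the first seed, AGCACTT on the sense strand, was found in the 3′ UTR of 0 of the 4 members and of 16.3% of the 12304 genes. The let-7 match CTACCTC was found in Sall4 and in 9.78% of genes. The AU-rich heptamer TATTTAT and the Pumilio octamer TGTANATA were each found once in Sox2, and in 28.9% and 25.6% of genes. Pou5f1 and Utf1 held none of the 4 motifs. The 3 sites are shown with 8 flanking bases and the motif in capitals, all in 3′ UTR exons of GRCm38 (the build also called mm10). The first lies at chr2:168748933-168748955 on the minus strand, the second at chr3:34651825-34651847 and the third at chr3:34652342-34652365 on the plus strand:
Sall4 let-7 match: taatttatCTACCTCaattatct
Sox2 AU-rich heptamer: ttgtacagTATTTATcgagataa
Sox2 Pumilio octamer: agaatccaTGTATATAtttgaact

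Sox2 (ENSMUSG00000074637.7, chromosome 3, 34650405 to 34652461, plus strand, a single exon) was the member that fell. Its nascent RNA was 1302, 1334 and 705 CPM in the 3 ESC 4sU libraries and 118, 87.3 and 100.2 CPM in the EpiLC 4sU libraries. Its mRNA was 515, 501 and 434 CPM in ESC total and 43.4, 37.6 and 43.1 CPM in EpiLC total. In both assays every EpiLC library lay far below every ESC library, and ESC number 3 was the lowest of the ESC libraries.

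The nascent change was -3.41 ± 0.21 on the log2 scale (SE; limma-voom adjusted p = 1.71e-08), a 10.7-fold decrease. The mRNA change was -3.55 ± 0.21 (limma-voom adjusted p = 2.9e-09), an 11.7-fold decrease. A gene was called changed at an adjusted p under 0.05 with an absolute log2 change above 1. In either direction 27.6% of all genes were called in mRNA and 25.5% in nascent RNA. Lower calls were made for 11.2% of all genes in mRNA and for 13.5% in nascent RNA, and 1 of the 4 members was called in each, Sox2 in both. The stability change, which is the mRNA change minus the nascent change and tests whether both moved alike, was -0.13 ± 0.30 (95% confidence interval -0.77 to 0.50; limma-voom adjusted p = 0.835). It was not called, and its interval does not exclude a change of the size seen in Utf1. Without both libraries of ESC number 3 the nascent and mRNA changes were -3.71 and -3.62, and the stability change turned to 0.09.

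Sox2 lies inside Sox2ot, a long non-coding gene of the same strand that shares 0 exonic bases with it. Reads of unspliced Sox2ot RNA over Sox2 would be counted as Sox2, and their number was not measured. Sox2ot fell too in nascent RNA, from 23.6 ± 6.42 to 5.84 ± 0.64 CPM (SD, n = 3), by -2.01 ± 0.27 (SE; limma-voom adjusted p = 2.41e-05). In total libraries it was at 1.83 ± 0.30 and 0.70 ± 0.28 CPM, which is -1.29 ± 0.44 on the log2 scale (limma-voom adjusted p = 0.019).

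**Figure D1:**
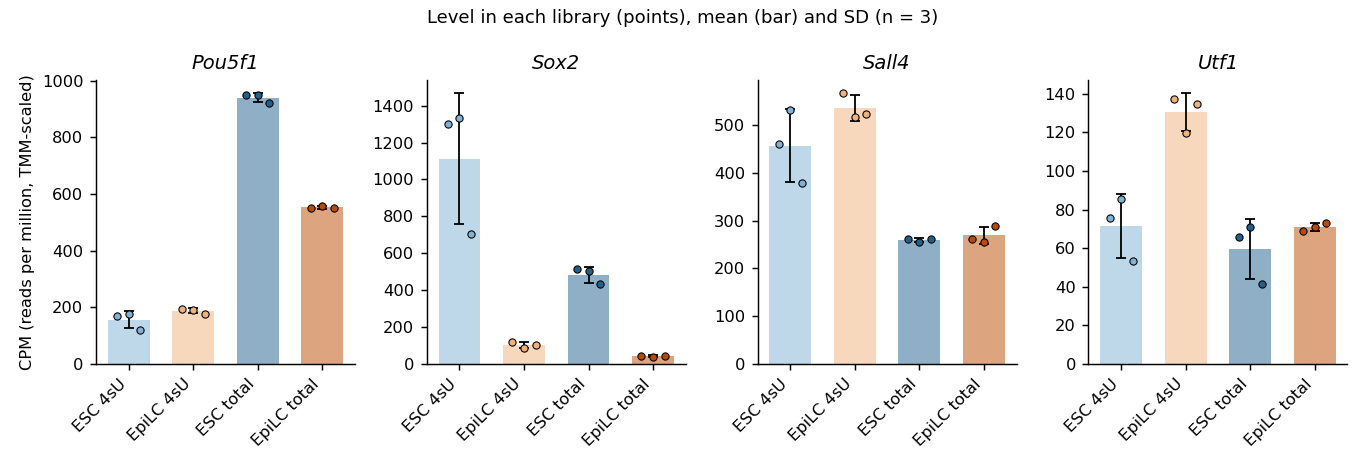
Level of each member in CPM (y axis, separate scale per gene) in the 4 groups (x axis). Points are the 3 libraries in the order of their number, bars the mean and error bars the SD. Sox2 drops in both assays, Pou5f1 is lower only in the total libraries (948, 950 and 922 against 550, 558 and 550 CPM), and Sall4 and Utf1 mRNA overlap between the cell types.

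The promoter of Sox2 is shown because its nascent RNA fell, and that of Utf1 because its nascent RNA was higher in EpiLCs. Each runs from 250 bases before to 50 after the RefSeq start (GRCm38.p6, plus strand), Sox2 at chr3:34649745-34650044 and Utf1 at chr7:139943606-139943905. Capitals mark the motifs searched on both strands, the octamer core ATGCAAA, the SOX cores ACAAAG and ACAATG and the GC box GGGCGG, some GC boxes overlapping each other:
Sox2: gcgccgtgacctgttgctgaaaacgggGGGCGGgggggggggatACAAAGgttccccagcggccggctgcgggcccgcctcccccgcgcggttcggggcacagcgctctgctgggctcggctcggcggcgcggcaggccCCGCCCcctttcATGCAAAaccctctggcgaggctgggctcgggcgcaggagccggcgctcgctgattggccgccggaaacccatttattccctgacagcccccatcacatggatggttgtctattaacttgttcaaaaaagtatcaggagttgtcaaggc
Utf1: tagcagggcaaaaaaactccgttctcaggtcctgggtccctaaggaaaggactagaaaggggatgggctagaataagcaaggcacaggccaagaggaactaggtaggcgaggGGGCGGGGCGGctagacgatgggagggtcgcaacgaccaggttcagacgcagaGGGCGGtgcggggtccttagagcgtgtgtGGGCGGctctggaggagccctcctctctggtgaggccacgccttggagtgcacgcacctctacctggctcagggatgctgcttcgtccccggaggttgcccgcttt

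The Sox2 window held 1 octamer core, 1 SOX core (ACAAAG) and 2 GC boxes, and the Utf1 window held 4 GC boxes only. Of 32851 promoter windows of that length, 4.63% held the octamer core, 18.7% ACAAAG, 12.6% ACAATG and 35.7% a GC box. The Pou5f1 window at chr17:35505782-35506081 held 1 GC box and none of the other motifs, and a second RefSeq window of the gene, at chr17:35508557-35508856, held ACAATG and none of the others. The RefSeq start of Sox2 lies 410 bases before the first base counted for the gene. A promoter entry was found for 3 of the 4 members, Sall4 being the other.

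Pou5f1 (ENSMUSG00000024406.16, chromosome 17, 35506018 to 35510772, plus strand, 5 exons) was the member whose nascent RNA and mRNA changes lay furthest apart. Its nascent RNA was 170, 174 and 120 CPM in ESCs and 194, 190 and 177 CPM in EpiLCs. Its mRNA was 948, 950 and 922 CPM in ESCs and 550, 558 and 550 CPM in EpiLCs. The mRNA values of the cell types did not overlap, with every EpiLC library lower, while every EpiLC nascent value lay above every ESC one by a small margin.

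Pou5f1 mRNA was 1.70-fold lower in EpiLCs, which is -0.77 ± 0.09 in log2 (SE; 95% confidence interval -0.96 to -0.57; limma-voom adjusted p = 4.73e-06). That passed the adjusted p but not the fold threshold, as 63.5% of all genes passed the adjusted p alone. The nascent change was 0.28 ± 0.11 (95% confidence interval 0.04 to 0.52; limma-voom adjusted p = 0.0507) and was not called. The stability change was -1.05 ± 0.15 (95% confidence interval -1.36 to -0.73; limma-voom adjusted p = 0.00256), a 2.06-fold decrease of total relative to nascent RNA. Pou5f1 was thus the 1 member of 4 called in stability, where 1.54% of all genes were called in either direction, 1.24% as higher and 0.305% as lower. The adjusted p alone was passed by 4.6% of genes in stability, 2.72% higher and 1.88% lower. The 182 higher and 45 lower stability calls over all genes became 132 and 66 under the median-of-ratios scaling and 254 and 28 under library totals alone. In all they were 785 without both libraries of ESC number 3 and 22 without those of EpiLC number 2. The median change over all genes was 0.02 in mRNA, -0.09 in nascent RNA and 0.11 in stability.

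The call lay close to the fold threshold, and it was lost with library totals alone (-0.98) and with sample quality weights (-0.97). Without the ESC 4sU library number 3 the stability change was -0.88 (limma-voom adjusted p = 0.000386), and without both libraries of ESC number 3 it was -0.90 (limma-voom adjusted p = 9.98e-07) with a nascent change of 0.12. Without both libraries of EpiLC number 2 it was -1.04 with a limma-voom adjusted p of 0.0526.

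**Figure D2:**
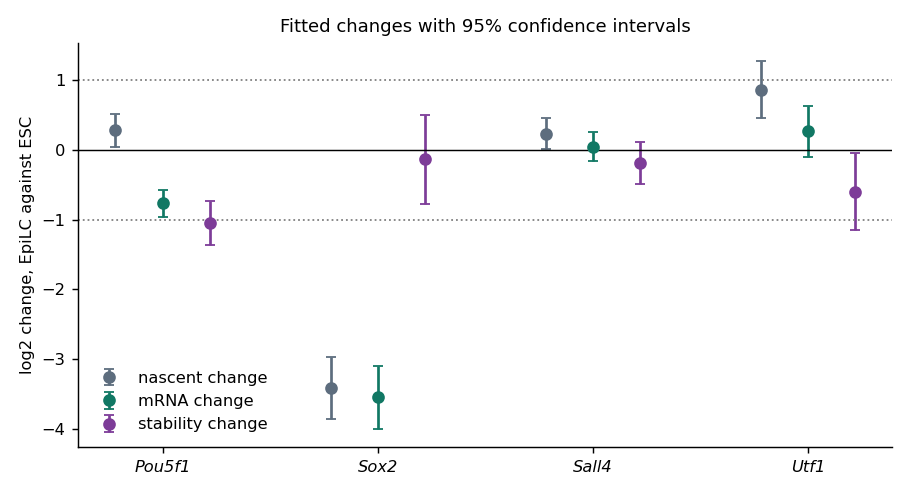
Fitted log2 change from ESC to EpiLC (y axis) of each member (x axis) in nascent RNA, in mRNA and in stability (mRNA minus nascent), with 95% confidence intervals. Dotted lines mark the fold threshold at -1 and 1. The Sox2 nascent (-3.41) and mRNA (-3.55) points lie side by side, while the Pou5f1 stability point (-1.05) is the 1 stability value past the line.

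Relative stability within a cell type was read as the log2 ratio of total to 4sU CPM, a value relative to the scaling of the libraries. In the study's methods this reading assumes steady mRNA levels within each state, and the stability change rests on it too. Whether levels were steady in EpiLCs at 56 h was not tested. For Pou5f1 it was 2.48, 2.45 and 2.94 in ESC numbers 1, 2 and 3, and 1.502, 1.56 and 1.64 in the EpiLC numbers. Every EpiLC value lay below every ESC value. In the fit it was 2.61 in ESCs, at percentile 98.5 of the 14731 genes, and 1.56 in EpiLCs, at percentile 88.5. The median gene was at 0.03 in ESCs and 0.15 in EpiLCs, so Pou5f1 lay above it in both cell types.

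The fitted values of the other 3 members lay below the median gene. Sox2 was at -1.16 in ESCs (percentile 24.9) and -1.29 in EpiLCs (percentile 19.8). Sall4 was at -0.81 (percentile 30.7) and -0.996 (percentile 23.9). Utf1 was at -0.28 (percentile 42.1) and -0.88 (percentile 25.8). Unlike its mRNA level, the relative stability of Sox2 overlapped between the cell types, from -1.41 to -0.70 over the ESC numbers and from -1.44 to -1.21 over the EpiLC numbers.

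**Figure D3:**
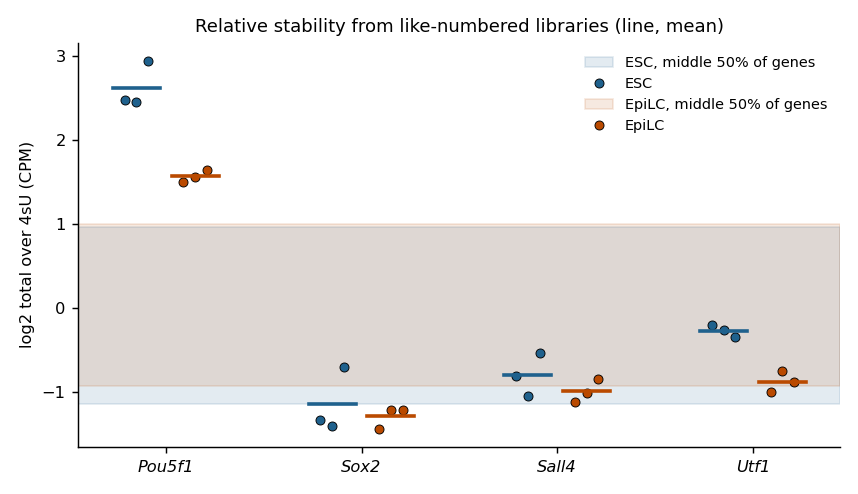
Log2 ratio of total to 4sU CPM (y axis) of each member (x axis) from like-numbered libraries, points, with the mean as a line, in ESCs and EpiLCs. Shaded bands span the middle 50% of the 14731 genes. Pou5f1 lies above both bands (2.45 to 2.94 in ESCs, 1.502 to 1.64 in EpiLCs). Paired by number, Utf1 is lower in each EpiLC number (-1.0005 to -0.75) than in each ESC number (-0.35 to -0.21). This split of Utf1 holds for these pairs only, and the numbers were not taken to pair the samples. The Utf1 stability change was not called (limma-voom adjusted p = 0.182).

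4sU is incorporated at uridines, so the number of uridines in each transcript is given beside these ratios. The Pou5f1 transcript has 271 uridines in 1362 bases (percentile 8.31 of 12304 genes by number), Utf1 247 in 1227 bases (percentile 6.64), Sox2 461 in 2057 bases (percentile 24.8) and Sall4 1173 in 5073 bases (percentile 75.7). In ESCs Pou5f1 and Utf1 lay 2.89 apart in log2 ratio. The uridine numbers are those of the spliced transcript, so uridines of introns are not in them. The part of uridine number in the ratios was not tested.

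Sall4 (ENSMUSG00000027547.17, chromosome 2, 168748332 to 168767201, minus strand, 4 exons) was the member with the smallest fitted changes in mRNA and in nascent RNA. Its nascent RNA was 461, 532 and 379 CPM in ESCs and 568, 518 and 524 CPM in EpiLCs. Its mRNA was 261, 256 and 262 CPM in ESCs and 261, 256 and 290 CPM in EpiLCs. The cell types overlapped in both assays.

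The Sall4 mRNA change was 0.05 ± 0.10 (SE; limma-voom adjusted p = 0.679), with a 95% confidence interval of -0.16 to 0.26, which spans 0.894-fold to 1.20-fold. The nascent change was 0.24 ± 0.10 (limma-voom adjusted p = 0.0648), and 0.11 without ESC number 3. The stability change was -0.19 ± 0.14 (95% confidence interval -0.49 to 0.12; limma-voom adjusted p = 0.467). None of the 3 was called. Gm14261, a non-coding gene on the opposite strand, shares 290 exonic bases with Sall4, and its nascent RNA rose from 2.78 ± 0.55 to 6.63 ± 0.23 CPM (SD, n = 3), by 1.21 ± 0.27 (SE; limma-voom adjusted p = 0.00161). The counting used strand, and at these levels its reads are few beside those of Sall4.

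Utf1 (ENSMUSG00000047751.9, chromosome 7, 139943789 to 139945112, plus strand, 2 exons, a GC content of 63.5% at percentile 99.1) had the largest nascent change of the 3 members not called in nascent RNA. Its nascent RNA was 75.8, 85.4 and 53.1 CPM in ESCs and 138, 119 and 135 CPM in EpiLCs, with every EpiLC library above every ESC library. Its mRNA was 65.7, 71.1 and 41.6 CPM in ESCs and 68.7, 70.9 and 73.1 CPM in EpiLCs. There the cell types overlapped, and ESC number 3 lay apart below the rest.

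Utf1 nascent RNA was 1.82-fold higher in EpiLCs, a change of 0.87 ± 0.19 (SE; 95% confidence interval 0.46 to 1.28; limma-voom adjusted p = 0.00161). It passed the adjusted p, as 52.5% of genes did and 23.7% in the same direction, but not the fold threshold. Its mRNA change was 0.27 ± 0.17 (95% confidence interval -0.10 to 0.64; limma-voom adjusted p = 0.187), and 0.05 without both libraries of ESC number 3. The stability change was -0.60 ± 0.26 (95% confidence interval -1.15 to -0.05; limma-voom adjusted p = 0.182) and was not called. Without both libraries of ESC number 3 it was -0.64 with a limma-voom adjusted p of 0.000818, past the adjusted p and short of the fold.

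**Figure D4:**
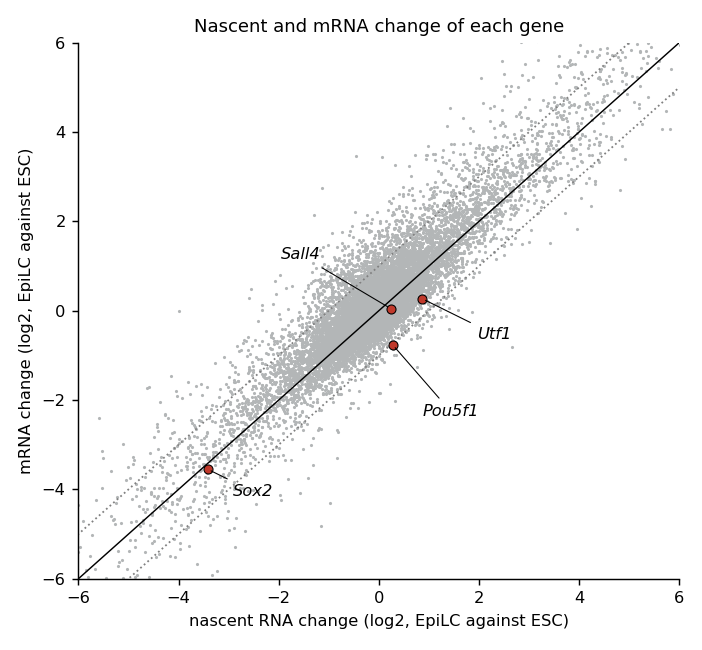
Nascent RNA change (x axis) against mRNA change (y axis), both log2 of EpiLC over ESC, for the 14731 genes (grey) and the members (red). On the solid line both are equal, and the dotted lines mark a stability change of -1 and 1. Sox2 lies near the solid line far from 0, Pou5f1 just below the lower dotted line. 142 genes with a change beyond 6 in either assay are not drawn.

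Levels were compared between members as CPM per kb of exon. In ESC 4sU libraries Sox2 came first with 541 ± 172 CPM per kb (SD, n = 3), followed by Pou5f1 (114 ± 22.1), Sall4 (90.2 ± 15.1) and Utf1 (58.2 ± 13.5), where Pou5f1 and Sall4 overlapped. In ESC total libraries Pou5f1 led with 690.2 ± 11.7 CPM per kb, at rank 64 of 14731 genes, followed by Sox2 (235 ± 21.1), Sall4 (51.2 ± 0.65) and Utf1 (48.5 ± 12.8), the last pair overlapping. In EpiLC 4sU libraries Pou5f1 (137 ± 6.72 CPM per kb) led, Utf1 (106 ± 7.94) and Sall4 (106 ± 5.37) overlapped, and Sox2 (49.5 ± 7.41) came last.

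In EpiLC total libraries the order was the same, with Pou5f1 at 406 ± 3.35 CPM per kb, Utf1 at 57.8 ± 1.79, Sall4 at 53.1 ± 3.56 and Sox2 at 20.1 ± 1.58. Only Utf1 and Sall4 overlapped there. Sox2 mRNA went from rank 274 to rank 4087 of the 14731 genes, and Pou5f1 from rank 64 to rank 104. By CPM per kb of exon, the member with the most nascent RNA in ESCs thus had the least in EpiLCs, while Pou5f1 had the most mRNA in both. The 4sU counts leave out reads in introns, and the members differ in exon number and in uridines. The part of these differences in the order of nascent levels was not tested.

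Relatives of the members were examined because a fall of 1 gene of a family may stand beside a rise of another. Of the 18 other SOX genes 11 passed the filter, and 5 rose and 3 fell in mRNA, beside 16.3% and 11.2% of all genes. Sox3, the nearest relative with Sox1, rose from 1.20 ± 0.47 to 11.4 ± 0.44 CPM per kb in total libraries (SD, n = 3), by 3.20 ± 0.23 on the log2 scale (SE; limma-voom adjusted p = 1.82e-08). Sox1, a marker of neural precursors, was at 2.68 ± 0.85 and 4.03 ± 0.68 CPM per kb, a log2 change of 0.69 that was not called, while its nascent change of 1.04 ± 0.24 was (SE; limma-voom adjusted p = 0.00251).

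Sox1, Sox2 and Sox3 form the B1 group, whose proteins bind alike. Summed over the 3 genes, total libraries held 239 ± 20.8 CPM per kb in ESCs and 35.5 ± 1.51 in EpiLCs (SD, n = 3). Sox2 made up 98.4% of that sum in ESCs and 56.6% in EpiLCs. In 4sU libraries the sum was 548 ± 171 and 74.6 ± 7.69 CPM per kb, with a Sox2 share of 98.6% and 66.1%. The rise of Sox3 was thus small beside the fall of Sox2.

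Sox4, Sox6, Sox11 and Sox12 were the other SOX genes with higher mRNA calls. Sox4 and Sox11, C group factors of progenitor cells, rose by 2.71 each in mRNA and by 2.46 and 2.83 in nascent RNA on the log2 scale. Sox12, of the same group, rose by 1.09 in mRNA. Sox15 fell by 3.25 and Sox21 fell by 2.87 in mRNA, and the endoderm factor Sox17 went from 1.64 ± 0.55 to 0.067 ± 0.115 CPM in total libraries (SD, n = 3). The other 7 SOX genes were below the filter, each with a mean of at most 1.098 CPM over the libraries. The counts of SOX calls were the same without ESC number 3.

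Among the 14 other POU genes 8 passed the filter, with 1 higher and 3 lower calls in mRNA, beside 16.3% and 11.2% of all genes. Pou3f1, which encodes OCT6 and is a marker of formative and primed cells, rose from 1.33 ± 0.12 to 21.0 ± 1.22 CPM per kb in total and from 3.24 ± 0.61 to 53.3 ± 2.97 in 4sU libraries (SD, n = 3). Its change was 3.96 ± 0.13 in mRNA (SE; limma-voom adjusted p = 1.12e-11) and 4.06 ± 0.14 in nascent RNA. Pou2f3 fell by 4.14, Pou4f2 fell by 1.78 and Pou6f1 fell by 1.26 in mRNA. Without ESC number 3, Pou3f2 was called higher as well (1.47, limma-voom adjusted p = 0.0196, against 0.57 with it). In EpiLC total libraries Pou5f1 still held 406 CPM per kb beside the 21.0 of Pou3f1.

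All 3 other SALL genes passed the filter, with 1 higher and 1 lower call in mRNA, again beside 16.3% and 11.2%. Sall2 rose from 3.58 ± 0.32 to 26.7 ± 0.82 CPM per kb in total libraries (SD, n = 3), by 2.91 ± 0.09 (SE; limma-voom adjusted p = 9.31e-12), and by 3.34 in nascent RNA. Sall3 fell by 2.47 in mRNA and by 2.40 in nascent RNA. Sall1 changed by 0.05 in mRNA and by -0.41 in nascent RNA and was not called. The 4 SALL genes summed to 70.4 ± 0.71 and 93.1 ± 4.69 CPM per kb in total libraries, and the Sall4 share went from 72.8% to 57.0%.

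**Figure D5:**
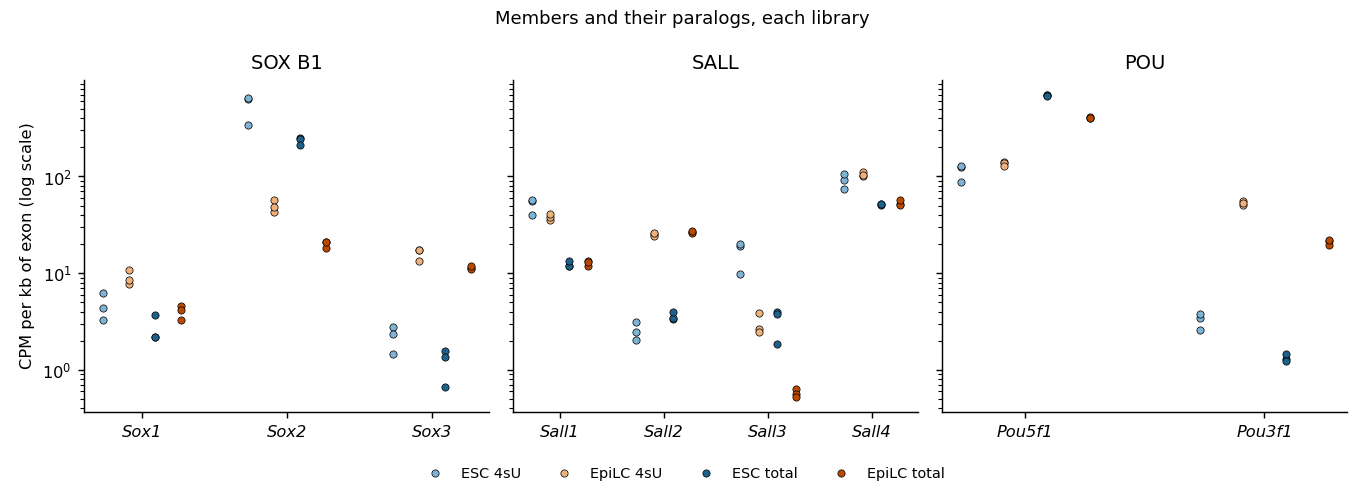
CPM per kb of exon (y axis, log scale) in each library for the SOX B1 genes, the SALL genes, and Pou5f1 with Pou3f1 (x axis), coloured by group. In EpiLC total libraries Sox2 (20.1 CPM per kb) comes near Sox3 (11.4), and Sall2 (26.7) comes nearer to Sall4 (53.1), while Pou5f1 (406) stays far above Pou3f1 (21.0).

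Other genes of the network were taken from lists. Of 16 pluripotency genes known from both states, all passed the filter, and 4 rose and 3 fell in mRNA, where 16.3% and 11.2% of all genes did. Lin28a, an RNA-binding protein that blocks let-7 maturation, went from 306 ± 150 to 970.2 ± 6.58 CPM in total libraries (SD, n = 3), a change of 1.80 with all libraries and 1.31 without ESC number 3. Tdgf1, a NODAL co-receptor, rose by 1.17 in mRNA and 1.94 in nascent RNA. The cell cycle factor Mybl2 fell by 2.496 in mRNA and 3.02 in nascent RNA, and the nuclear receptor gene Nr0b1 from 124 ± 28.8 to 0.819 ± 0.070 CPM. Nanog, the homeodomain factor, fell by 1.55 in mRNA and 1.67 in nascent RNA. Nr0b1 and Nanog are also among the naive markers counted above, so their falls are not separate from that count.

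Genes whose enhancers are textbook targets of OCT4 and SOX2 numbered 10, which share Nanog, Tdgf1, Zscan10 and Dppa4 with the list above. In mRNA 3 of them rose and 5 fell (16.3% and 11.2% of all genes), with a median change of -0.93 against 0.02 over all genes. Spp1 fell by 4.45 and Fbxo15 by 4.24. Lefty1, an inhibitor of NODAL, rose by 3.43 ± 0.75 (SE; limma-voom adjusted p = 0.000993), and by 2.31 without ESC number 3. Without ESC number 3 the nascent calls of this list were 2 higher and 5 lower, against 3 and 5 with it.

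SALL4 acts with the NuRD complex, and all 14 genes of NuRD subunits passed the filter. In mRNA 3 rose and 0 fell in limma-voom, edgeR and DESeq2 alike, beside 16.3% and 11.2% of all genes in limma-voom. The limma-voom adjusted p alone was passed by 6 higher and 5 lower genes (31.4% and 32.1% of all genes), and as many were lower at an unadjusted p under 0.05. Chd3, a remodelling ATPase, rose from 42.9 ± 3.75 to 109 ± 1.30 CPM (SD, n = 3) and Mta1 from 48.8 ± 1.70 to 119 ± 8.80. The third was Cdk2ap1, at 1.27. Chd4, the main ATPase of the complex in these cells, was at 1015 ± 60.5 and 1179 ± 23.6 CPM, a change of 0.22. With all libraries and TMM scaling, limma-voom called a stability change, made for 1.54% of all genes, in 0 of the 58 different genes of the network, target, POU, SOX, SALL and NuRD lists that passed the filter. The limma-voom adjusted p alone was passed in stability by 2 NuRD genes, both lower, and by 0 genes of each other list. Of all genes 1.88% passed it as lower and 2.72% as higher. At an unadjusted p under 0.05 there were 21 of the 58 (36.2%, and 22.9% of all genes). Pou2f2, at 1.75 ± 0.49 (SE; limma-voom adjusted p = 0.0563), was called by edgeR, by DESeq2, by limma-voom with library totals alone, and by limma-voom without ESC number 3 (2.22, adjusted p = 0.000534). With sample quality weights limma-voom called 4 of the 58, Pou2f2, Lin28a, Sox17 and Sox21, beside 846 of all genes.

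The genes whose log2 CPM followed each member most closely over the 12 libraries were also listed, among the 10187 genes that averaged at least 10 CPM. For Pou5f1 they included Lmnb1 and Sec23b, both with Pearson r = 0.996. For Sox2 they were Kat6b (r = 0.996), Zbtb38 (r = 0.995) and Dennd2c (r = 0.995). For Sall4 they were Nufip2 (r = 0.988), Nr4a1 (r = 0.986) and Pank3 (r = 0.985), and for Utf1 Ssr1 (r = 0.975), Mrm3 (r = 0.967) and Dis3 (r = 0.964). These values describe 12 points that fall into 4 groups and share library depth and assay. Sec23b changed by -0.44 in mRNA and 0.22 in nascent RNA, beside -0.77 and 0.28 for Pou5f1, and Kat6b by -2.58 and -2.49, beside -3.55 and -3.41 for Sox2.

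Reads behind each value were ample for Pou5f1 (441 to 18780 per library), Sox2 (336 to 9894) and Sall4 (1391 to 5060) and fewest for Utf1 (195 to 1406). Reads that fit a pseudogene copy of Pou5f1 equally well were left out by the unique alignment, and their number was not measured. Gm19553, on the strand opposite to Pou5f1, shares 291 exonic bases with it and stayed under 1 CPM in every library.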

How the data were processed

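Raw counts of reads for each gene were deposited in 1 table. Per the labels and the study's methods, the authors trimmed adapters with Cutadapt 1.14, aligned single-end stranded reads to mm10 with STAR 2.5.3a, kept unique alignments and counted reads over exons by strand with featureCounts 1.5.3. Which library was made with which of the 2 kits is not given in the sources used here. The 92 spike-in entries held 0 reads and were left out. Symbols were matched for 51274 of 51467 genes through GENCODE.

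Libraries were grouped by cell type and assay from their labels. With R 4.3.3 and edgeR 4.0.16 the counts were scaled by TMM and filtered at 3 CPM in at least 3 libraries. limma 3.58.1 (voom) fitted 1 mean per group over all 12 libraries, with Benjamini-Hochberg adjustment over 14731 genes. The mRNA change is EpiLC total against ESC total, the nascent change EpiLC 4sU against ESC 4sU, and the stability change their difference. Fits were tested on simulated data. The alternatives were other scalings, filters and tests (DESeq2 1.42.0 among them), sample weights, a replicate block and leaving out libraries. Leaving out ESC number 3 from the list counts was added after seeing the data.

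The members and lists were chosen with earlier results of these data known. Beside the members, the POU, SOX and SALL relatives, overlapping genes and the 3 genes most like each member in log2 CPM, the text names the 2 largest called rises and falls in mRNA per list among genes averaging at least 10 CPM. An item that this rule names is not reported here. Outside that rule Nanog, Chd4 and Cdk2ap1 were named for their roles or to complete a count, and Pou2f2, Sox17, Sox21, Dnmt3a, Gata3, Tfap2a, Col1a2, Pdgfrb, Dcn, Postn and Fap to complete counts of lists or markers, all after their values were seen. Sequence features were read from GENCODE transcripts and the GRCm38 genome, and promoters and microRNAs from RefSeq tables.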

Additional observations from a re-analysis of the deposited data

Results flagged for a closer look

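The stability change of Pou5f1, -1.05 ± 0.15 on the log2 scale (SE; limma-voom adjusted p = 0.00256), stood out because the difference between EpiLCs and ESCs was not the same in total and in nascent RNA by a test of the interaction. The ratio of total to 4sU CPM was lower in each of the 3 EpiLC numbers than in each of the 3 ESC numbers. Groups of 3 libraries are too small for a test of single libraries as outliers, and none was made.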

How the results depend on the processing

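The directions and calls of Sox2 in mRNA and nascent RNA held in all 13 alternatives and all 18 fits that left out a library or both libraries of a number. Over those 18 fits the Sox2 changes were -3.62 to -3.48 in mRNA and -3.71 to -3.26 in nascent RNA, those of Pou5f1 -0.78 to -0.76 and 0.12 to 0.37, those of Sall4 -0.0055 to 0.084 and 0.11 to 0.35, and those of Utf1 0.05 to 0.42 and 0.69 to 1.01. Utf1 passed the fold in nascent RNA (1.01) without ESC 4sU replicate 2 or both libraries of that number. The stability changes were -1.14 to -0.88 for Pou5f1 (-0.90 without both libraries of ESC number 3), -0.29 to 0.16 for Sox2 (0.16 without ESC 4sU replicate 3 and 0.086 without both libraries of ESC number 3), -0.32 to -0.06 for Sall4 and -0.81 to -0.43 for Utf1. The Sall4 mRNA change was -0.0054 without EpiLC total replicate 3, -0.0055 without both libraries of that number, and -0.016 without a filter. Relative stability of Utf1 in ESCs was -0.44 to -0.065. Over the 18 fits 3918 to 4257 genes were called in mRNA and 3503 to 3842 in nascent RNA. In stability 97 to 662 genes were called without a single library. Without both libraries of numbers 1, 2 and 3 the stability calls were 87, 57 and 785 for ESCs and 27, 22 and 29 for EpiLCs.

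The Pou5f1 stability change was -0.98 with library totals alone and -0.97 with sample quality weights, both short of the fold, and limma treat against a log2 change of 1 gave -1.05 with an adjusted p of 1. With the adjusted p alone, Pou5f1 mRNA (-0.77) and Utf1 nascent RNA (0.87) passed. Genes called without a filter, at 10 CPM, by the adjusted p alone and by treat numbered 7107, 2625, 9356 and 2401 in mRNA and 5723, 2428, 7731 and 1765 in nascent RNA; more or fewer genes were tested in the first pair. Stability calls numbered 846 with quality weights, 678 by the adjusted p alone and 2 by treat. The cause of the other shifts was not tested.

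Relative stability moved with the scaling. In ESCs Utf1 was at -0.51 with library totals, -0.45 with TMM within each assay, -0.028 without a filter and -0.46 at 10 CPM. In EpiLCs, under the median-of-ratios scaling, library totals, TMM within each assay and 10 CPM, the values were 1.41, 1.40, 1.34 and 1.33 for Pou5f1 (1.68 without a filter), -1.44, -1.46, -1.52 and -1.52 for Sox2, -1.15, -1.16, -1.22 and -1.23 for Sall4, and -1.03, -1.04, -1.11 and -1.11 for Utf1.

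Per the labels the extracted RNA was divided between the assays, but they do not say that equal numbers mark the same RNA. Deviations of like-numbered 4sU and total libraries from their group means were correlated with r of 0.174 to 0.409 in ESCs and 0.019 to 0.071 in EpiLCs, so not every pair passed 0.1 and the numbers were not taken to pair the samples. With a replicate block, stability calls numbered 354 (number as a term) and 528 (number within cell type as a term), and the Pou5f1 stability change was -1.04 in both. The Utf1 stability change was then -0.59 and -0.61, the second with a limma-voom adjusted p of 0.00645. Short of the fold, Utf1 was not called in either, and the block changed no call of a member.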
